A study of Homo sapiens with 12 samples.

Results

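The classical cadherin genes CDH1, CDH2, CDH3, CDH4, CDH7, CDH11 and CDH19 were followed in the human melanoma lines SK-MEL-5 and MALME-3M, untreated or exposed to interferon-γ (IFN-γ). They were taken by symbol from the deposited gene count tables, which held all 7 of them among 44700 genes, and 5 of the 7 were among the 15810 genes that passed the filter on low counts. Both lines were labelled wild type, and mutations carried by these tumour lines were not examined here. SK-MEL-5 was grown in MEM and received 150 ng/mL IFN-γ, and MALME-3M was grown in IMDM with a larger share of fetal bovine serum and received 200 ng/mL, for 24 h from the time of seeding. Each of the 4 groups (SK-MEL-5 untreated, SK-MEL-5 with IFN-γ, MALME-3M untreated, MALME-3M with IFN-γ) had 3 libraries of total RNA from triplicate wells. The labels do not say that the wells came from separate cultures, so the p-values cover only variation among wells, and this may be technical. Line, dose and medium changed together and cannot be told apart in any comparison between the lines.

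Classical cadherins are single-pass membrane proteins whose outer repeats bind the same cadherin on a neighbouring cell in a calcium-dependent way. Their cytoplasmic tails bind p120-catenin (CTNND1) and β-catenin (CTNNB1) or plakoglobin (JUP), and α-catenin (CTNNA1) links them to actin. CDH1 (E-cadherin), CDH2 (N-cadherin), CDH3 (P-cadherin) and CDH4 (R-cadherin) are type I members, and CDH7, CDH11 and CDH19 are type II members. E-cadherin and P-cadherin hold epidermal melanocytes to keratinocytes, N-cadherin is known for its gain as melanoma cells leave the epidermis, and CDH19 is a cadherin of the neural crest and Schwann cell lineage.

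Gene counts summed to between 15514412 and 22921184 per library. The treatment check held in both lines: the interferon-response genes IRF1 and CIITA were higher after IFN-γ, with log2 fold changes of 5.35 and 4.33 in SK-MEL-5 and 6.43 and 6.36 in MALME-3M. All 8 melanocyte lineage markers had counts in every group, with summed levels of 5743 to 6426 CPM (gene counts relative to the library total, scaled by the trimmed mean of M values, TMM). Single markers differed between the lines. TYRP1 stood at 138.1 CPM per kb of exon in untreated SK-MEL-5 and 1.84 in untreated MALME-3M, and DCT at 328.0 and 129.1. PMEL, TYR and S100B were higher in untreated MALME-3M, S100B at 446.5 against 115.6. The summed level of 8 epithelial and keratinocyte markers was 0.646 to 1.40 CPM in SK-MEL-5 and 15.8 to 23.6 CPM in MALME-3M, where KRT19 had no count. That of 5 leukocyte markers was 0.361 to 1.24 CPM over all libraries. Other lists also differed between the lines: 8 fibroblast markers summed to 130.7 to 189.3 CPM in SK-MEL-5 and 15.3 to 19.5 in MALME-3M, 5 endothelial markers to 12.8 to 18.7 and 24.1 to 43.1, and 5 Schwann and neural markers to 582.1 to 707.2 and 1302 to 1587. COL1A2 had no count in untreated SK-MEL-5, and the endothelial CDH5 and TEK had none in any SK-MEL-5 library. The part of these markers in the differences between the lines was not tested. In bulk RNA, fewer cells of a type and less RNA per cell cannot be told apart.

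The promoters of CDH7 and CDH19 are shown, since these are neighbours on chromosome 18 that moved in opposite directions after IFN-γ. The RefSeq table (assembly GRCh38.p14) held 4 of the 7 members (CDH2, CDH4, CDH7 and CDH19), and the window searched was the 250 bases before the most upstream RefSeq start site. The GENCODE 29 gene starts farther upstream for CDH2 and CDH4, whose whole windows lie within it, and for CDH19, whose window overlaps it by 48 bases. The sequences are the parts outside the GENCODE genes, 5′ to 3′ on the gene's strand, at chr18:65750002-65750251 (plus strand) for CDH7 and chr18:66604139-66604340 (minus strand) for CDH19. Capitals mark a SOX core match.
CDH7: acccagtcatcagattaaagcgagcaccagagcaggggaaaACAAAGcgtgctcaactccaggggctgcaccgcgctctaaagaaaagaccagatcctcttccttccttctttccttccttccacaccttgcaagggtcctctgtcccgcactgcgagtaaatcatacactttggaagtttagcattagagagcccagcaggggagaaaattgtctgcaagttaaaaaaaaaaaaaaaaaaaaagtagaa
CDH19: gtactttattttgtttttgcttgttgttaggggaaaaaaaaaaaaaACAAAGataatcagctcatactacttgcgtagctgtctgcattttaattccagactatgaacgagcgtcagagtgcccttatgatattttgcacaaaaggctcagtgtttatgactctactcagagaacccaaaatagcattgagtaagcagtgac
Motifs were searched on both strands: the E-box CAGGTG bound by SNAI and ZEB proteins, the interferon-stimulated response element core GAAANNGAAA, and, added after the sequences had been seen, the SOX core ACAAAG and the MITF E-box CATGTG. CDH7 and CDH19 each held 1 SOX core, with its last base 204 and 199 bases before the RefSeq start. CDH4 held 1 SNAI and ZEB E-box, with its last base 11 bases before its RefSeq start, and CDH2 held none of the 4 motifs. The SOX core was present in 13.7% of the 35116 promoter windows of this length, the SNAI and ZEB E-box in 17.5%, the response element core in 3.02% and the MITF E-box in 9.42%. The windows of CDH2, CDH4, CDH7 and CDH19 had 66.0%, 58.4%, 45.6% and 38.0% G and C. SOX10, the SOX factor of the melanocyte lineage, stood at 270.4 ± 14.3 CPM in untreated and 265.6 ± 11.6 CPM in treated SK-MEL-5 and at 276.7 ± 16.9 and 319.9 ± 13.1 CPM in MALME-3M (SD, n = 3).

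Both lines had counts for CDH1, CDH2, CDH3, CDH7 and CDH19, but in different proportions. Per kilobase of exon, which allows levels of different genes to be set side by side, untreated MALME-3M expressed CDH1 at 61.7 ± 0.0790 CPM per kb, CDH2 at 11.1 ± 0.558, CDH3 at 4.30 ± 3.06, CDH19 at 2.86 ± 0.345 and CDH7 at 0.263 ± 0.0126 (SD, n = 3). The ranges of CDH3 and CDH19 overlapped, and those of the other neighbours in this order did not. Untreated SK-MEL-5 expressed CDH19 at 4.67 ± 0.0956 CPM per kb, above all other members in every library, followed by CDH3 at 1.12 ± 1.69, CDH2 at 0.768 ± 0.104, CDH1 at 0.655 ± 0.769 and CDH7 at 0.496 ± 0.0928. The range of CDH3 covered those of CDH2, CDH1 and CDH7, and the range of CDH1 covered those of CDH2 and CDH7, so that only CDH2 and CDH7 among these 4 stood apart from each other. CDH19 made up 61.9% ± 11.7 of the summed level of the 7 members in untreated SK-MEL-5 and 75.8% ± 8.11 in treated SK-MEL-5. CDH1 made up 76.9% ± 2.71 and 76.3% ± 0.469 in untreated and treated MALME-3M. The summed level was 7.73 ± 1.48 CPM per kb in untreated SK-MEL-5 and 80.2 ± 2.81 in untreated MALME-3M.

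**Figure D1:**
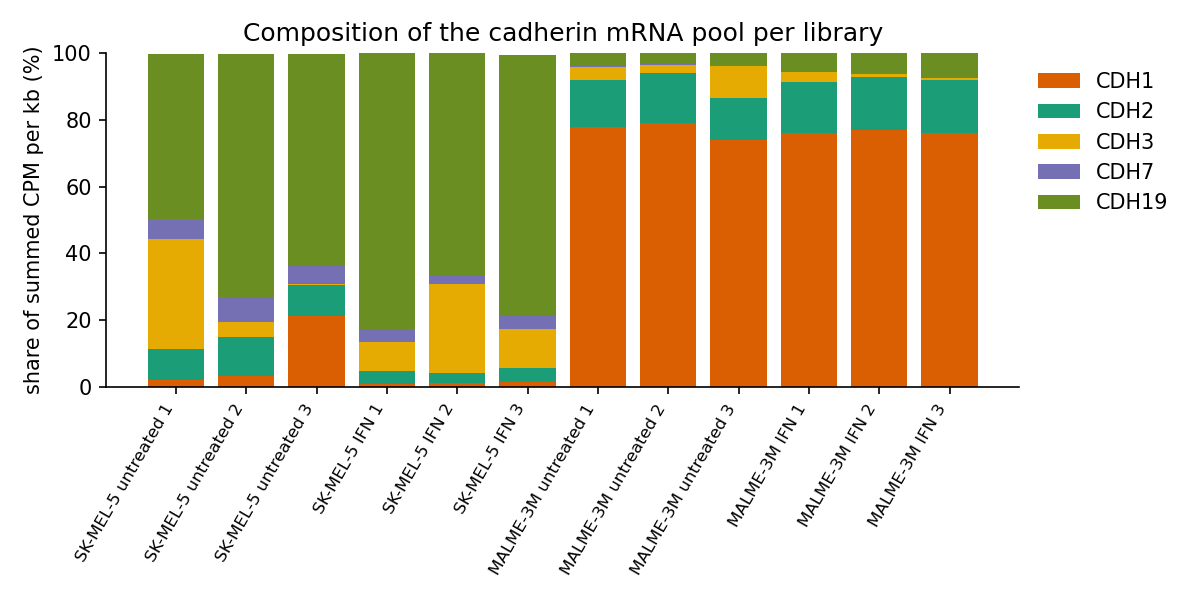
Share of each of the 5 tested cadherins (colours) in the summed CPM per kb of exon of the 7 members, in percent, for each of the 12 libraries (bars, named by group and replicate). CDH19 is the largest share in each SK-MEL-5 library and CDH1 in each MALME-3M library, and CDH4 and CDH11 are too low to be seen.

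After IFN-γ the order changed little at its top. Treated MALME-3M expressed CDH1 at 52.7 ± 4.02 CPM per kb, CDH2 at 10.8 ± 0.673, CDH19 at 4.36 ± 0.269, CDH3 at 1.05 ± 0.948 and CDH7 at 0.0990 ± 0.0184, with no overlap between neighbours. CDH19 thus stood above CDH3 there in every library. Treated SK-MEL-5 expressed CDH19 at 5.62 ± 0.221, CDH3 at 1.19 ± 0.829, CDH2 at 0.279 ± 0.0156, CDH7 at 0.258 ± 0.0504 and CDH1 at 0.0827 ± 0.0253 CPM per kb, and the ranges of CDH2 and CDH7 overlapped.

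The comparison of the untreated lines asks how their cadherins differ at baseline. With edgeR's quasi-likelihood test and Benjamini-Hochberg adjustment over all genes tested, 3 of the 5 tested members were higher in MALME-3M (CDH1, CDH2 and CDH3) and 2 were lower (CDH7 and CDH19). Of all genes tested, 34.5% were called higher and 37.2% lower, so a call in this comparison is common. The median log2 fold change of the 5 members was 2.03, beside -0.02 over all genes.

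CDH1 had 20, 30 and 188 counts in the untreated SK-MEL-5 libraries (1.27, 1.34 and 9.53 CPM) and 6329, 6327 and 7311 in untreated MALME-3M (380.6, 381.4 and 380.6 CPM). Every MALME-3M library lay far above every SK-MEL-5 library, at a log2 fold change of 6.53 ± 0.366 (SE, edgeR adjusted p = 6.34e-12), or 8.17 without the third SK-MEL-5 library. CDH1 lies at chr16:68737225-68835548 on the plus strand (GRCh38, GENCODE 29).

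CDH2 had 68, 85 and 65 counts in untreated SK-MEL-5 (4.32, 3.79 and 3.30 CPM) and 900, 963 and 1013 in untreated MALME-3M (54.1, 58.1 and 52.7 CPM). The groups were far apart and tight, with a log2 fold change of 3.86 ± 0.0986 (SE, edgeR adjusted p = 4.27e-17). E-cadherin and N-cadherin transcripts were thus both more abundant in MALME-3M. CDH2 lies at chr18:27950966-28177446 on the minus strand.

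Both tested type II members, CDH7 and CDH19, were lower in MALME-3M. CDH19 had 502, 736 and 621 counts in untreated SK-MEL-5 (31.9, 32.8 and 31.5 CPM) and 346, 280 and 406 in untreated MALME-3M (20.8, 16.9 and 21.1 CPM). CDH7 had 133, 166 and 114 counts in untreated SK-MEL-5 (8.46, 7.39 and 5.78 CPM) and 65, 60 and 76 in untreated MALME-3M (3.91, 3.62 and 3.96 CPM). Neither gene's groups overlapped, and the log2 fold changes were -0.71 ± 0.0852 for CDH19 (SE, edgeR adjusted p = 4.63e-07) and -0.91 ± 0.197 for CDH7 (adjusted p = 0.000435). CDH7 lies at chr18:65750252-65890341 on the plus strand and CDH19 at chr18:66501083-66604138 on the minus strand, with a gap of 610.7 kb between them. The summed Schwann and neural markers were higher in MALME-3M, where CDH19 was lower.

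**Figure D2:**
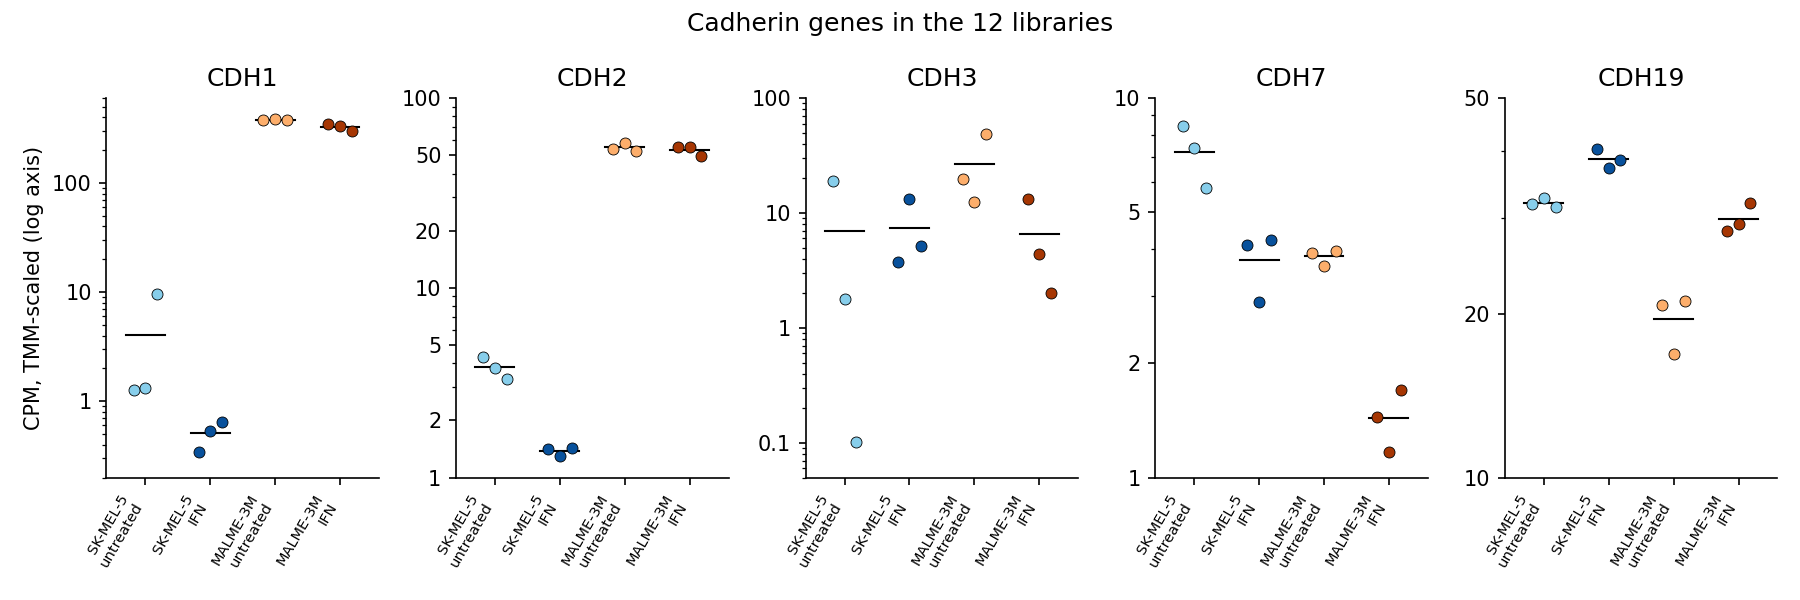
TMM-scaled CPM of the 5 tested cadherins in the 12 libraries, on log axes with a range of their own in each panel. Points are libraries in replicate order and lines are group means: CDH1 and CDH2 separate the lines, CDH7 is lower and CDH19 higher after IFN-γ in both lines, and the CDH3 libraries scatter within each group.

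In SK-MEL-5, 3 of the 5 tested members were lower after IFN-γ (CDH1, CDH2 and CDH7) and CDH19 was higher. Of all genes tested in this comparison, 5.98% were called higher and 7.05% lower. The median log2 fold change of the members was -0.94, beside -0.03 over all genes.

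CDH2 had 29, 24 and 22 counts in the treated SK-MEL-5 libraries (1.42, 1.29 and 1.43 CPM). All 3 lay below the lowest untreated library, at 3.30 CPM, and the group means were 1.38 ± 0.0775 and 3.80 ± 0.515 CPM (SD, n = 3). The log2 fold change was -1.45 ± 0.144 (SE, edgeR adjusted p = 5.2e-07). Leaving out any of the 12 libraries kept it between -1.54 and -1.36.

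CDH1 had 7, 10 and 10 counts in treated SK-MEL-5 (0.342, 0.538 and 0.651 CPM). All 3 lay below the untreated libraries, but the size of the difference rested on the third untreated library, whose 9.53 CPM was 7.31 times the mean of the other 2. With it the log2 fold change was -3.03 ± 0.702 (SE, edgeR adjusted p = 0.00644), and without it -1.39 ± 0.220 (adjusted p = 0.000932). The call was lost with edgeR's robust fit, an alternative chosen after the data had been seen (adjusted p = 0.102).

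CDH7 had 84, 54 and 65 counts in treated SK-MEL-5 (4.11, 2.91 and 4.23 CPM), all below the untreated libraries. The log2 fold change was -0.94 ± 0.197 (SE, edgeR adjusted p = 0.00286). CDH19 had 822, 691 and 589 counts (40.2, 37.2 and 38.4 CPM), all above the untreated libraries, and rose by 0.27 ± 0.0821 on the log2 scale (adjusted p = 0.0374). That small rise missed the threshold when any of the 6 SK-MEL-5 libraries or the second treated MALME-3M library was left out, with adjusted p from 0.0529 to 0.136 and log2 fold changes from 0.24 to 0.29.

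In MALME-3M, CDH7 fell and CDH19 rose, and CDH1, CDH2 and CDH3 did not pass the test. Of all genes tested, 9.51% were called higher and 8.77% lower, and the median log2 fold change was -0.23 over the 5 members and 0.00 over all genes.

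CDH7 had 24, 25 and 38 counts in treated MALME-3M (1.44, 1.17 and 1.70 CPM), all below the lowest untreated library at 3.62 CPM. Its log2 fold change was -1.41 ± 0.229 (SE, edgeR adjusted p = 0.000193). CDH19 had 473, 627 and 713 counts (28.4, 29.4 and 32.0 CPM), all above the highest untreated library at 21.1 CPM. It rose by 0.61 ± 0.0853 on the log2 scale (adjusted p = 3.66e-05), and both calls held without any of the 12 libraries.

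CDH2 had 923, 1183 and 1107 counts in treated MALME-3M (55.5, 55.4 and 49.7 CPM) and overlapped the untreated libraries. Its log2 fold change was -0.04 ± 0.0782 (SE, edgeR adjusted p = 0.798), with a 95% interval of -0.22 to 0.14.

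CDH1 had 5734, 7141 and 6628 counts in treated MALME-3M (344.6, 334.4 and 297.4 CPM), all below the 3 untreated libraries. Its log2 fold change was -0.23 ± 0.260 (SE, edgeR adjusted p = 0.622). The model gives each gene a common spread over the 4 groups, and for CDH1 that spread depended on the third untreated SK-MEL-5 library: without it the same change, -0.23 ± 0.0610, was called (adjusted p = 0.0143). It was also called with only the MALME-3M libraries in the fit (-0.23, adjusted p = 0.00804). CDH1-201, a protein-coding transcript of 4889 nt, held 46.5% ± 2.56 of the estimated counts of annotated CDH1 transcripts in untreated and 38.4% ± 1.28 in treated MALME-3M (SD, n = 3), and the groups did not overlap. Other shares went the other way without overlap. CDH1-212, a protein-coding transcript of 4882 nt, went from 3.0% ± 1.94 to 7.9% ± 3.19, and CDH1-205 from 8.0% ± 0.778 to 10.3% ± 1.28. CDH1-204 also rose, below 1% in all MALME-3M libraries, and CDH1-206 went from at most 0.144% to 0. These shares were described only and not tested.

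**Figure D3:**
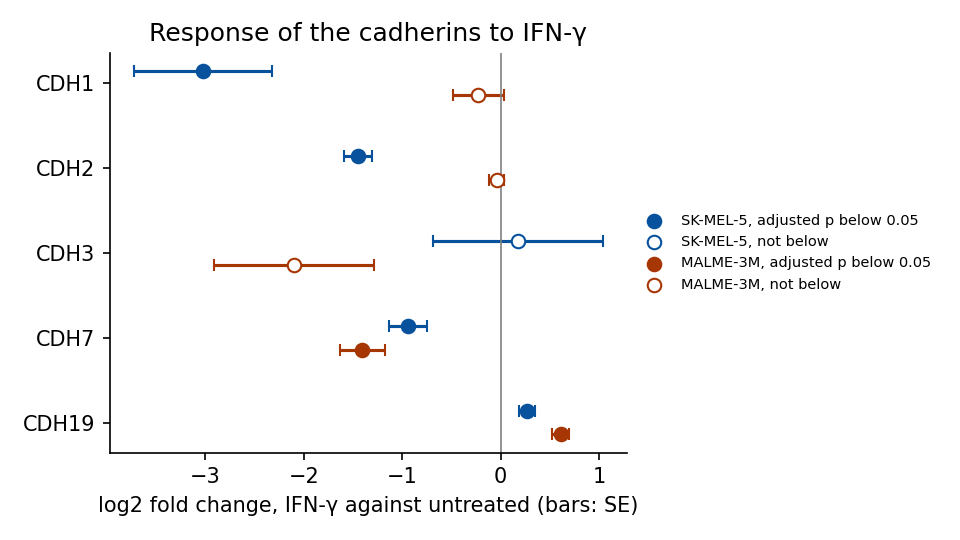
log2 fold change of the 5 tested cadherins after IFN-γ in SK-MEL-5 (blue) and MALME-3M (brown), with bars of 1 SE from edgeR. Filled points passed an adjusted p of 0.05: CDH7 and CDH19 in both lines, and CDH1 and CDH2 in SK-MEL-5.

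Whether the lines responded differently was tested as the difference of the log2 fold changes, MALME-3M minus SK-MEL-5. CDH1 and CDH2 differed with a more positive change in MALME-3M. Of all genes tested, 2.67% were called more positive and 1.79% more negative in MALME-3M. The more positive ones were 59.9% of these calls, and 49.2% with upper-quartile scaling. The difference was 1.41 ± 0.165 for CDH2 (SE, edgeR adjusted p = 2.15e-05), and it was called without any of the 12 libraries in turn.

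For CDH1 the difference was 2.80 ± 0.768 (SE, edgeR adjusted p = 0.0443). It was 1.16 ± 0.228 without the third untreated SK-MEL-5 library (adjusted p = 0.0221), and it missed the threshold when any treated SK-MEL-5 library or any MALME-3M library was left out (adjusted p from 0.0655 to 0.135). The difference was -0.46 for CDH7 (95% interval -1.16 to 0.23) and 0.34 for CDH19 (95% interval 0.07 to 0.62), and neither passed edgeR's test after adjustment (adjusted p = 0.487 and 0.123).

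Between the treated lines CDH1 and CDH2 were higher in MALME-3M and CDH7 and CDH19 lower, with log2 fold changes of 9.33, 5.27, -1.37 and -0.37 (edgeR adjusted p = 1.66e-12, 3.8e-18, 2.68e-05 and 0.000593). Of all genes tested, 35.4% were called higher and 36.4% lower in this comparison. It shares its libraries with the comparisons above.

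CDH3 was the least even member. It had 301, 40 and 2 counts in untreated SK-MEL-5 (19.1, 1.78 and 0.101 CPM), 77, 248 and 80 in treated SK-MEL-5 (3.77, 13.4 and 5.21 CPM), 327, 205 and 931 in untreated MALME-3M (19.7, 12.4 and 48.5 CPM) and 220, 93 and 45 in treated MALME-3M (13.2, 4.35 and 2.02 CPM). Treated and untreated libraries overlapped in both lines. The spread within groups, an SD of 1.89 on the log2 CPM scale (prior count 2), was larger than that of 99.88% of the genes tested, and that of CDH1, at 0.826, larger than that of 98.79%. The median gene had 0.142, and CDH7, CDH2 and CDH19 had 0.239, 0.118 and 0.105.

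The log2 fold change of CDH3 after IFN-γ was 0.18 ± 0.865 in SK-MEL-5 and -2.10 ± 0.813 in MALME-3M (SE, edgeR adjusted p = 0.942 and 0.086). In SK-MEL-5 it ran from -0.57 to 2.91 as single libraries were left out. In MALME-3M it was called without the first treated MALME-3M library (-3.10, adjusted p = 0.0334) or without untreated SK-MEL-5 replicate 1 or 3 (-2.10, adjusted p = 0.0185 and 0.0402). The difference of the responses, -2.27 ± 1.18 (adjusted p = 0.356), was -5.01 without the first untreated SK-MEL-5 library (adjusted p = 0.0122).

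The higher CDH3 level in untreated MALME-3M, at a log2 fold change of 2.03 ± 0.816 (SE, edgeR adjusted p = 0.0327), was lost without MALME-3M replicate 3 (1.27, adjusted p = 0.219), SK-MEL-5 replicate 2 (1.53, adjusted p = 0.134) or SK-MEL-5 replicate 3 (1.43, adjusted p = 0.103). Without the first SK-MEL-5 library it was 4.76. The treated lines differed by -0.24 ± 0.861 (adjusted p = 0.812). CDH3 lies at chr16:68636189-68722616 on the plus strand, 14.6 kb before CDH1.

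The deposited transcript estimates cover annotated transcripts and assembled ones that could not be tied to genes, so the annotated sum holds only some of the reads of a gene. For CDH1 in MALME-3M it was 58.2% to 61.5% of the gene count in all 6 libraries. In untreated SK-MEL-5 it was 18.0, 16.0 and 12.7 estimated counts beside 20, 30 and 188 gene counts, so the third library stood out in the gene counts and not in the annotated transcripts. In treated SK-MEL-5 it was 9.0, 4.24 and 7.85, all below the untreated libraries, and the log2 fold change from these estimates was -1.07 (edgeR adjusted p = 0.081).

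For CDH3 the annotated transcripts had 1.00 estimated count in 2 of the 6 SK-MEL-5 libraries and none in the other 4, beside 2 to 301 gene counts. In MALME-3M they had 49.98, 42.85 and 14.26 estimated counts untreated and 18.81, 7.93 and 9.93 after IFN-γ, which overlap. The library with the most gene counts, 931, had the lowest of the untreated estimates. A low annotated share is not particular to uneven genes: CDH2 in MALME-3M, whose gene counts were tight, had 0.0363% to 5.16% of them in annotated transcripts. CDH1 overlaps 3 other annotated genes (RNA5SP429, AC099314.1 and FTLP14) and CDH3 overlaps AC126773.2, AC126773.3 and HSPE1P5. The strand setting of the counting is not given in the sources used here, so reads of genes on opposite strands cannot be told apart, and the part of these genes in the unevenness was not tested.

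**Figure D4:**
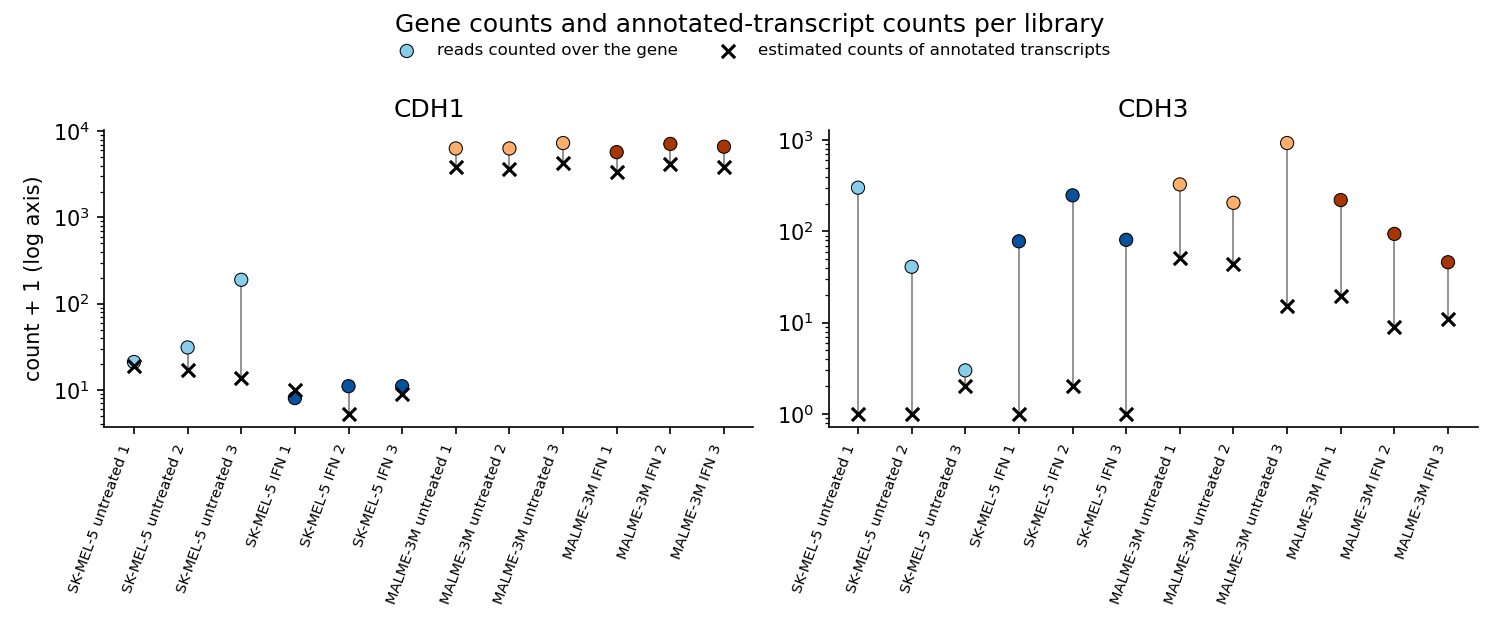
Reads counted over CDH1 and CDH3 (circles, coloured by group) and summed estimated counts of their annotated transcripts (crosses) in each of the 12 libraries, as count + 1 on log axes. The 188 CDH1 counts of the third untreated SK-MEL-5 library have 12.7 estimated counts beneath them, and CDH3 has at most 1.00 in SK-MEL-5.

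The deviations of CDH1 from its group means were most like those of PRKG2, a cGMP-dependent kinase, FXYD3, a small membrane regulator of the sodium pump, and CDH12, a type II cadherin (Pearson's r = 0.956, 0.952 and 0.938 over the 12 libraries). FXYD3 had 950 to 1180 counts in the 6 MALME-3M libraries, 1 in the third untreated SK-MEL-5 library and 0 in the other 5. PRKG2 had 253 to 396 in MALME-3M and at most 1 in any SK-MEL-5 library, so in SK-MEL-5 these likenesses rest on single counts. CDH12 was highest in the third untreated SK-MEL-5 library, at 11.5 CPM beside 7.50 to 9.18 in the other 5 SK-MEL-5 libraries. It had no count in MALME-3M, so its likeness rests on the SK-MEL-5 libraries, and mostly on that one.

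CDH4 and CDH11 were at the limit of detection. CDH4 had 0 to 6 counts per library, with 7 and 6 counts in untreated and treated SK-MEL-5 and 6 and 8 in MALME-3M, so no difference was detectable at this depth. CDH11, a cadherin of mesenchymal cells, had 1 count in 1 treated library of each line and none in the untreated groups, where 3 counts over the 3 libraries would be 0.0518 CPM in SK-MEL-5 and 0.0572 CPM in MALME-3M. Neither was tested.

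Genes were also ranked by how alike their log2 CPM was to that of each tested member over the 12 libraries. For CDH2 the first were EHBP1, ITGA6 and MAP1B (r = 0.997 for each), and for CDH1 RASSF8-AS1, PROSER2 and the assembled locus MSTRG.60340 (r = 0.994, 0.993 and 0.992). For CDH7 they were the splicing regulator ESRP1 (r = 0.985), RPL23 and HSPD1 (0.962 and 0.959). ESRP1 fell after IFN-γ in both lines, from 16.9 ± 2.68 to 10.8 ± 2.05 CPM in SK-MEL-5 and from 11.4 ± 0.295 to 6.38 ± 0.301 in MALME-3M (SD, n = 3), with log2 fold changes of -0.65 and -0.83 (edgeR adjusted p = 0.00319 and 0.000453). For CDH19 they included ARID5B and AIF1L (r = 0.977 and 0.976), and for CDH3 FTH1, MRPS10 and GYPC (0.891, 0.849 and 0.839). All 12 points share 4 groups, and the values mix differences between groups with those within them. For CDH3 the likeness within groups was partial. FTH1 stood at 1409, 1346 and 1241 CPM in the untreated SK-MEL-5 libraries in which CDH3 stood at 19.1, 1.78 and 0.101. The order of the libraries was also shared in treated MALME-3M. It was not shared in treated SK-MEL-5, with FTH1 at 1300, 1403 and 1424.5 CPM beside CDH3 at 3.77, 13.4 and 5.21, or in untreated MALME-3M.

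CTNNB1, CTNNA1 and CTNND1 were expressed at 193.1 to 1033 CPM (group means) in both untreated lines. Of 16 tested catenins and actin linkers, 3 rose and 1 fell in SK-MEL-5, and 7 rose and 1 fell in MALME-3M. Over all genes 5.98% rose and 7.05% fell in SK-MEL-5, and 9.51% rose and 8.77% fell in MALME-3M. The list had median log2 fold changes of 0.00 and 0.09 beside -0.03 and 0.00 over all genes. CTNNB1 went from 1033 ± 32.1 to 1044 ± 22.4 CPM in SK-MEL-5 (edgeR adjusted p = 0.894) and rose from 373.7 ± 9.53 to 422.4 ± 17.5 CPM in MALME-3M (log2 fold change 0.18, adjusted p = 0.00707). CTNNA1 rose by 0.25 in MALME-3M (adjusted p = 0.000713) and had 0.01 in SK-MEL-5, and the difference was called (0.25, adjusted p = 0.0416). The linkers LIMA1, ACTN4 and TJP1 rose in both lines, by 0.53, 0.35 and 0.18 in SK-MEL-5 and 0.40, 0.28 and 0.37 in MALME-3M.

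Between the untreated lines 9 of the 16 were higher and 4 lower in MALME-3M, beside 34.5% higher and 37.2% lower over all genes. CTNNB1 was lower by -1.47 ± 0.0440 on the log2 scale, while CTNND1 and JUP were higher by 0.72 ± 0.0492 and 1.89 ± 0.319 (SE, edgeR adjusted p = 4.65e-16, 1.35e-10 and 3.08e-05). JUP was low in both, at 1.31 ± 0.743 CPM in SK-MEL-5 and 4.69 ± 1.25 in MALME-3M. CTNND2, the neural member of the p120 family, had 4.68 ± 1.43 CPM in untreated SK-MEL-5, 2.43 ± 0.193 after IFN-γ (log2 fold change -0.94, adjusted p = 0.0369) and 2 counts in each MALME-3M group.

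ZEB1, SNAI2 and ZEB2, which repress CDH1, were lower in untreated MALME-3M, and SNAI1 and EZH2 of the same list were higher. Of 13 tested repressors and cofactors, 9 were lower and 2 higher in untreated MALME-3M, beside 37.2% lower and 34.5% higher over all genes, with a median log2 fold change of -0.33 beside -0.02 over all genes. ZEB1 stood at 47.3 ± 0.991 CPM in SK-MEL-5 and 5.22 ± 1.18 in MALME-3M (log2 fold change -3.17 ± 0.138, edgeR adjusted p = 1.4e-13). SNAI2 stood at 156.6 ± 14.9 and 70.1 ± 5.43 CPM (-1.16 ± 0.0701, adjusted p = 2.09e-11), and ZEB2 at 641 ± 57.7 and 508.5 ± 22.0 CPM (-0.33 ± 0.0586, adjusted p = 4.73e-05). TCF4 was lower by -6.58, with 3 counts in untreated MALME-3M. SNAI1 was higher in MALME-3M by 2.15 ± 0.567 (adjusted p = 0.00231) but had at most 1.39 CPM in any untreated library. EZH2 stood at 123.3 ± 4.79 CPM in untreated SK-MEL-5 and 196.1 ± 2.49 in untreated MALME-3M. TWIST1 stood at 37.9 ± 3.02 and 37.3 ± 2.48 CPM and was not called. The part of these genes in the CDH1 levels was not tested.

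After IFN-γ 1 of the 13 rose and 3 fell in SK-MEL-5 (5.98% and 7.05% of all genes), and 2 rose and 1 fell in MALME-3M (9.51% and 8.77%). In SK-MEL-5, SNAI2, ZEB1 and ZEB2 had log2 fold changes of -0.06, 0.18 and 0.02 (edgeR adjusted p = 0.667, 0.352 and 0.897) and TWIST1 fell by 0.27 (adjusted p = 0.0192). In MALME-3M, ZEB2 rose by 0.19 (adjusted p = 0.03), and SNAI2, ZEB1 and TWIST1 had -0.08, -0.02 and -0.09 (adjusted p = 0.515, 0.96 and 0.45).

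FURIN rose and ADAM10 fell in both lines. FURIN, which cleaves the cadherin propeptide, rose by 0.34 ± 0.0571 in SK-MEL-5 and 0.44 ± 0.0562 in MALME-3M on the log2 scale (SE, edgeR adjusted p = 0.000402 and 1.45e-05). ADAM10, which sheds E-cadherin and N-cadherin from the surface, fell by 0.26 ± 0.0487 and 0.27 ± 0.0482 (adjusted p = 0.000879 and 0.000486). Of 14 tested processing and turnover genes, 1 rose and 2 fell in SK-MEL-5 (5.98% and 7.05% of all genes), and 3 rose and 3 fell in MALME-3M (9.51% and 8.77%).

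**Figure D5:**
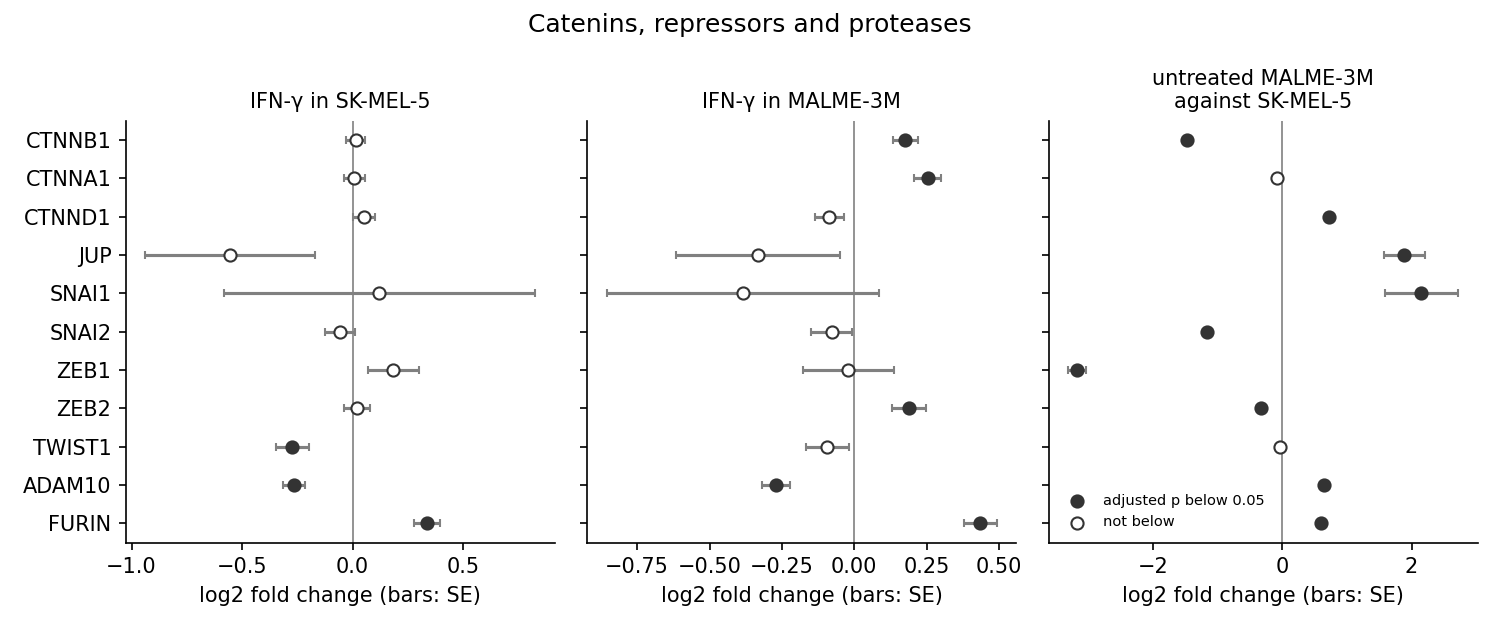
log2 fold changes with bars of 1 SE from edgeR for 4 catenins, 5 repressors of CDH1 and 2 processing enzymes, after IFN-γ in SK-MEL-5, after IFN-γ in MALME-3M, and between the untreated lines, with axes of their own. Filled points passed an adjusted p of 0.05: FURIN is higher and ADAM10 lower after IFN-γ in both lines, and ZEB1, at -3.17, has the lowest value between the lines.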

How the data were processed

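RNA of 12 libraries was sequenced. Per the file headers, the authors deposited raw read counts per gene, ending in HTSeq's summary lines, and kallisto tables with estimated counts and TPM per transcript. STAR, HTSeq, kallisto, cutadapt and SAMtools are listed with no version, and hg38 as build, in the submitters' processing notes. Which annotation and strand setting were used, and how duplicates were handled, is not given in the sources used here, so limits from counts cover counting error only.

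The main test was edgeR 4.0.16 (R 4.3.3): filterByExpr with a minimum count of 10, TMM scaling, a quasi-likelihood model with 1 mean per group on all 12 libraries, and Benjamini-Hochberg adjustment over 15810 genes, with calls below 0.05. The standard error is the log2 fold change over the square root of F, which understates the error where a group has few counts. The 5 summary lines were left out. For an alternative fit, deposited estimated counts were added up over each gene's annotated transcripts (GENCODE 29) and rounded. Deposited TPM was used for description only. Levels per kb use the GENCODE exon union. The fit was tested on simulated data and recovered the genes changed. There every gene had the common spread, a biological coefficient of variation of 0.0955. Only genes above a minimum mean level, which CDH7 did not reach, were changed. The changes were larger than those of CDH19 after IFN-γ, so changes as small as these are not covered. CDH1, CDH3 and CDH7 had larger coefficients, 0.372, 0.772 and 0.143, so the simulation does not show how the fit performs for genes as uneven as these.

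Named genes were all members in every library, set catenins, repressors and enzymes, and in each list at most the 3 called genes with the largest change in a comparison. Some genes the rule names are not reported here. SOX10 was named after the promoters had been searched. EZH2, PMEL and TYR were named outside the rule, so that both directions of their lists are shown. Genes most like a member had the highest Pearson's r, 3 for each (5 for the deviations of CDH1), among tested genes with a mean CPM of at least 1. Members, lists and rules were chosen with earlier results of these data known. The labels carry no replicate numbers, so replicates are numbered by accession order and no libraries were paired.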

Additional observations from a re-analysis of the deposited data

Results flagged for a closer look

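The response of CDH2 to IFN-γ differed between the lines by a test of the difference itself: MALME-3M minus SK-MEL-5 was 1.41 on the log2 scale (edgeR adjusted p = 2.15e-05). The response of CDH1 differed by 2.80 (edgeR adjusted p = 0.0443), and by 1.16 without the third untreated SK-MEL-5 library (adjusted p = 0.0221). The CDH1 call held in 3 of the 12 fits that left out 1 library, those without an untreated SK-MEL-5 library, with adjusted p up to 0.135 in the others. It was also lost with DESeq2's test (adjusted p = 0.0759), the stricter low-count filter (0.0537), the robust fit (0.262) and the transcript estimates (0.338). Dose and medium differed with the line in both cases and cannot be told apart from it.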

How the results depend on the processing

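Scaling by DESeq2's size factors or the upper quartile changed no call of a member in any of the 5 comparisons. The estimated counts of annotated transcripts left 0 members lower and 0 higher in SK-MEL-5 (3 and 1 with the gene counts), 0 lower and 0 higher in MALME-3M (1 and 1), 0 with a more positive difference (2), 0 lower in untreated MALME-3M (2) and 1 lower in treated MALME-3M (2). They turned CDH3 between the treated lines to 4.71 (adjusted p = 0.00275) from -0.24. These estimates hold only some of the reads. In MALME-3M, 3 members were called lower with no low-count filter and 3 with only the groups compared, in place of 1. The difference of responses had 1 more positive member in place of 2 with DESeq2's test, with the stricter filter (minimum count 30) and with the robust fit, and 1 more negative member in place of 0 with no filter. Without single libraries, the members called ran from 1 to 2 (more positive), 0 to 1 (more negative), 1 to 3 (lower in MALME-3M) and 0 to 1 (higher in SK-MEL-5). The call of CDH3 between the untreated lines was lost with DESeq2's test (adjusted p = 0.222) and the robust fit (0.163). Over all genes, the transcript estimates gave 396 higher and 176 lower calls in SK-MEL-5 (946 and 1114), 527 and 415 in MALME-3M (1504 and 1386), 68 and 69 differences (422 and 283), 3653 and 3758 between the treated lines (5597 and 5749) and 3743 lower between the untreated (5877). SK-MEL-5 had 655 lower calls without its untreated replicate 2 and 665 without its treated replicate 3, and 275 and 240 more positive differences were called without treated MALME-3M replicates 1 and 3. No paired analysis was possible because the labels carry no replicate numbers. Depth limits CDH4 and CDH11.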

Other observations

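Other cadherins also separated the lines. CDH12, a type II cadherin of the nervous system, had 537 counts in untreated SK-MEL-5 and none in MALME-3M, at least 161-fold higher against a floor of 3 counts over the group. Its level after IFN-γ in SK-MEL-5 was 8.73 ± 0.395 CPM, beside 9.19 ± 2.04 untreated (SD, n = 3; edgeR adjusted p = 0.858). The desmosomal cadherin DSG2 stood at 133.9 ± 2.00 CPM in untreated SK-MEL-5 and 0.728 ± 0.273 CPM in MALME-3M (log2 fold change -7.48, adjusted p = 3.74e-20), the reverse of CDH1. It fell by 0.23 in SK-MEL-5 after IFN-γ (adjusted p = 0.0208). CDH15 and CDH24 were higher in untreated MALME-3M, by 5.81 and 2.25 on the log2 scale, and CDH24 rose in MALME-3M after IFN-γ by 0.58 (edgeR adjusted p = 0.0302). CDH15 had 1 count in untreated SK-MEL-5 and 70 in untreated MALME-3M, so the size of its difference is uncertain. Of all genes tested, 34.5% were called higher and 37.2% lower between the untreated lines.

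Among the FAT, Dachsous, Flamingo and calsyntenin cadherins, 1 of 9 tested rose and 1 fell in SK-MEL-5 (5.98% and 7.05% of all genes), and 2 rose and 3 fell in MALME-3M (9.51% and 8.77%). PCDH15, a cadherin of hair cell tip links, went from 6 to 184 counts in SK-MEL-5 (log2 fold change 4.93, adjusted p = 1.28e-06) and from 9 to 10 in MALME-3M, and the difference was called (-4.96, adjusted p = 0.00505). FAT1 fell in both lines, by 0.45 and 0.24, and FAT2 fell in MALME-3M by 0.56.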
